A study of Mus musculus with 12 samples.

Results

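The 26S proteasome is the protease that degrades ubiquitin-tagged proteins. In the livers of 12 mice, 35 genes for its standing subunits and for assembly chaperones of its cap were followed. Members were the protein-coding genes whose symbol is Psma, Psmb, Psmc or Psmd followed by a number, with a mean of at least 1 CPM (counts scaled to a common library size) over the 12 libraries. Of 51912 gene identifiers in the deposited table, 39 symbols matched. Psmb8, Psmb9 and Psmb10, which encode the inducible catalytic subunits, were left out by name, and Psmb11, a thymus form of a catalytic subunit, was left out with 1 count in all libraries together. The remaining 35 comprised 15 genes of the 20S core and 20 of the 19S cap, and all 35 passed the filter on low counts. Counted with the cap are 3 assembly chaperones, Psmd5, Psmd9 and Psmd10. Psma8, a testis form of an alpha subunit, lay just inside the minimum with a mean of 1.02 raw CPM and 11 to 58 counts per library.

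There were 4 groups of 3 mice, made by 2 genotypes and 2 diets: Mlkl-/- mice on a high-fat diet (HFD), wild-type mice on HFD, Mlkl-/- mice on normal chow (ND) and wild-type mice on ND. MLKL is the pseudokinase that breaks the plasma membrane in necroptosis, and the study asked what its loss does in obesity and fatty liver brought on by diet. HFD held 36% fat by content and drew 59% of its energy from lipid; mice started it at 8 to 9 weeks of age, and the samples are labelled with 25 weeks of diet, while the design text has a span from 16 weeks on. Livers were taken from fed animals picked for mean organ weights, and neither the strain nor the way the Mlkl allele was made is given in the sources used here.

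The 20S core is a barrel of 4 stacked rings. Its 2 outer rings of alpha subunits gate the entry of substrates, and its 2 inner rings of beta subunits carry the 3 kinds of active site. The 19S cap binds ubiquitin chains, removes them, unfolds the substrate with a ring of 6 ATPases and feeds it into the barrel. When proteasome activity falls short, the transcription factor NRF1, encoded by Nfe2l1, is known to raise the genes of core and cap together through antioxidant response elements in their promoters. Liver cells, which make large amounts of secreted protein, express the complex constitutively, and interferon is known to replace the 3 catalytic core subunits by the inducible set encoded by Psmb8, Psmb9 and Psmb10.

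The promoters of 4 members are printed because 2 of them (Psmb5 and Psmb6, catalytic subunits) hold a match to the core of the antioxidant response element and the other 2 (Psma5 and Psmd6) belong to the members that differed with diet in the tests reported here. The sequences are from RefSeq on GRCm38.p6 (mm10), read 5′ to 3′ on the gene's strand from 100 bases before the start site and ending before the first base of any annotated exon, and capitals mark a match to TGACNNNGC. Psmb5 is at chr14:54618023-54618095 on the minus strand, Psmb6 at chr11:70525257-70525356 on the plus strand, Psma5 at chr3:108256826-108256877 on the plus strand and Psmd6 at chr14:14120985-14121045 on the minus strand.
Psmb5: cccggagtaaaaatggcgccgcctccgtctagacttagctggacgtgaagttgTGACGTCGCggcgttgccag
Psmb6: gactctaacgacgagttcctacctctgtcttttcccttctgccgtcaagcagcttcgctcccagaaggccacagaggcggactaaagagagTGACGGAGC
Psma5: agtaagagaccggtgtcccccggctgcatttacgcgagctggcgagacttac
Psmd6: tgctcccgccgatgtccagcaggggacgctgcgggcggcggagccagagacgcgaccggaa

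Promoters of 28 members were in the sequence table, each from 250 bases before to 50 bases after the start site, in 30 windows. Matches to TGACNNNGC on either strand were in 16.7% of the 30 windows, those of Psmb5, Psmb6, Psmc6, Psmd9 and Psmd12, against 12.4% of all 32851 promoter windows. In Psmb5 the match began 47 bases before the start site and in Psmb6 9 bases before it. CCAAT, the letters of the box that the factor NF-Y binds, was in 36.7% of the members' windows against 37.4% of all windows, and GAAA followed by 2 bases of any kind and again GAAA, the core of an interferon-stimulated response element, was in 10.0%, those of Psmb3, Psmd4 and Psmd9, against 3.44%. The share of the antioxidant core among members thus lay close to that of all promoters, and a letter match is not a measured binding site.

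Library totals ran from 19435391 to 32120426 counts, and the 35 members together held 0.213% to 0.274% of a library's counts, lowest in Mlkl-/- HFD replicate 2 and highest in Mlkl-/- HFD replicate 1. Mlkl itself had 16, 9 and 34 counts in Mlkl-/- HFD livers, 134, 252 and 88 in wild-type HFD livers, 16, 15 and 20 in Mlkl-/- ND livers and 72, 76 and 92 in wild-type ND livers, so every Mlkl-/- library was below every wild-type library. Libraries also differed in a feature whose origin was not tested. The summed raw CPM of 8 loci that hold mostly small or repeat-rich RNAs was between 3484 and 9239 in 6 libraries (the 3 from Mlkl-/- HFD livers, replicates 2 and 3 of wild-type HFD and replicate 1 of Mlkl-/- ND) and between 378 and 656 in the other 6, so it was high in 5 of 6 HFD and in 1 of 6 ND libraries and is largely shared with diet. Values with this level as a term are given where it ends a call and beside the medians of core and cap for diet. The hepatocyte markers Alb, Apoa1 and 8 others were abundant in every library, with a summed level of 80553 to 111230 raw CPM.

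The coefficient of variation of CPM within a group, averaged over the 4 groups, had a median of 9.14% over the 35 members. In single groups it reached 24.6% for Psmd14 and 70.3% for Psma8. The ratio of the highest to the lowest of the 12 libraries was 1.22 to 1.84 for all members but Psma8, for which it was 4.37. In the 20S core, Psmb1, a non-catalytic beta subunit, had the highest mean of 109 CPM and Psma8 the lowest of 1.00 CPM, followed by Psmb2, another non-catalytic beta subunit, at 37.9 CPM. In the 19S cap the scaffold subunit Psmd2, which takes up ubiquitin shuttle factors, had the highest mean of 135 CPM and the assembly chaperone Psmd10 (gankyrin) the lowest of 8.67 CPM. Reads here start at transcript ends and CPM is not divided by length, so these levels rank genes by ends counted. Psma8 stood far below its close paralog Psma7, at 74.2 CPM.

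**Figure D1:**
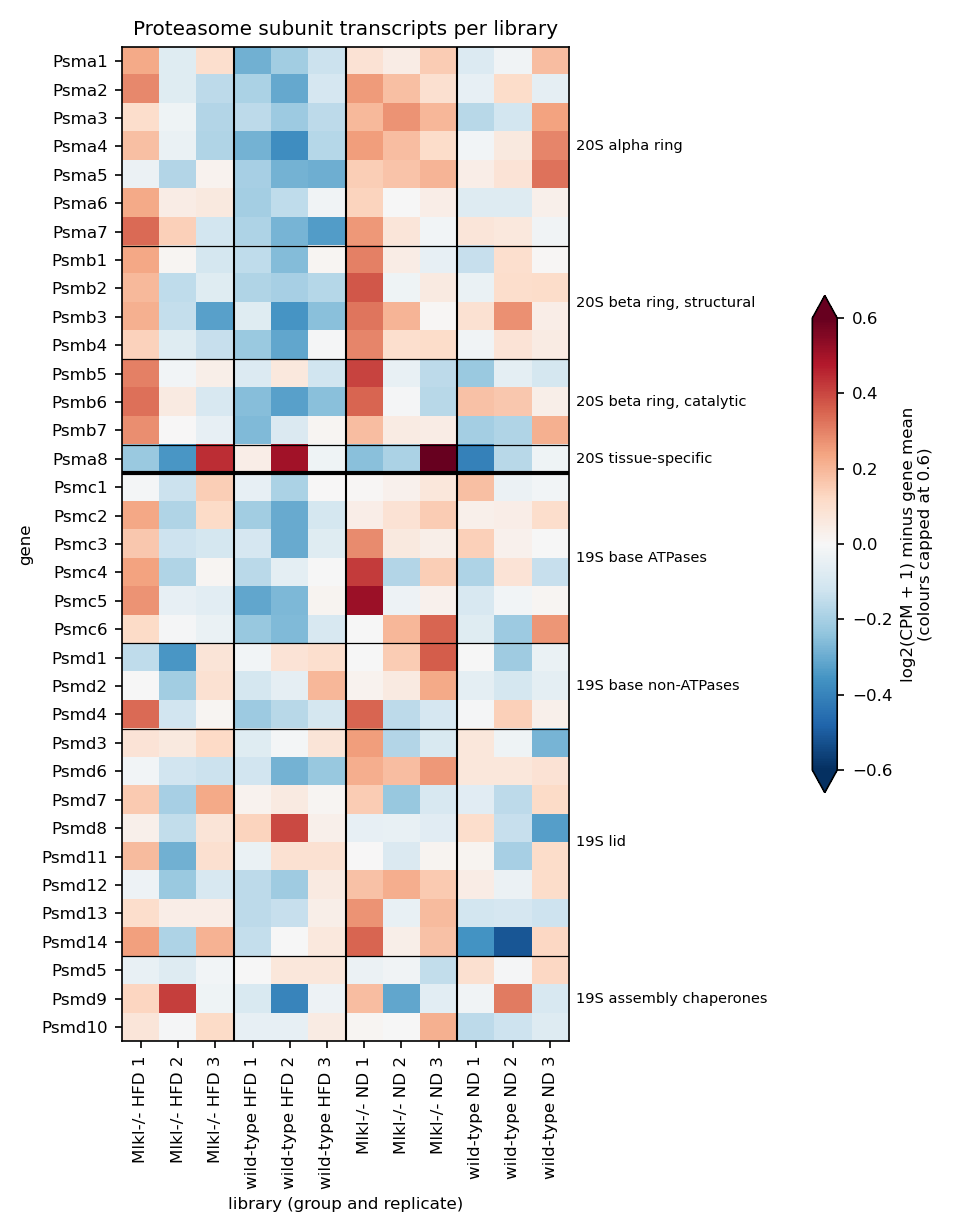
Level of each of the 35 members (rows, by subcomplex) in each of the 12 libraries (columns, by group), as log2(CPM + 1) minus the gene's mean over libraries; red is above and blue below the mean, and colours stop at 0.6. The 20S rows are mostly blue in the 3 wild-type HFD libraries, and Mlkl-/- ND replicate 1 is the highest library in 13 of the 35 rows.

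The members' library pattern was uneven inside groups. Mlkl-/- ND replicate 1 was the highest library for 13 members and lay above the member's mean in 30 of 35, and Mlkl-/- HFD replicate 1 was the highest for 7 and above the mean in 27. Wild-type HFD replicate 2 was the lowest library for 14 members and wild-type HFD replicate 1 for 6. Over the 4 groups, wild-type HFD livers had the lowest group mean for 13 of 15 core members and 8 of 20 cap members, and Mlkl-/- ND livers had the highest for 10 of 15 core members and 12 of 20 cap members. The highest group mean was 1.05 times (Psmd11) to 1.38 times (Psma4) the lowest over the 34 members other than Psma8, with a median of 1.23 times. Members are read from the same libraries, so these counts are not independent of each other.

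As a summary of each subcomplex, log2 CPM was averaged over its members in each library. The 20S mean was 5.95, 5.69 and 5.75 in Mlkl-/- HFD livers, 5.60, 5.61 and 5.64 in wild-type HFD livers, 5.99, 5.84 and 5.89 in Mlkl-/- ND livers and 5.68, 5.80 and 5.87 in wild-type ND livers. All 3 wild-type HFD libraries thus lay below all other libraries for the core. The 19S mean was 6.02, 5.81 and 5.96 in Mlkl-/- HFD livers, 5.81, 5.81 and 5.92 in wild-type HFD livers, 6.07, 5.90 and 6.00 in Mlkl-/- ND livers and 5.89, 5.85 and 5.91 in wild-type ND livers, and here the groups overlapped. Core minus cap averaged -0.13 ± 0.07 in Mlkl-/- HFD livers, -0.23 ± 0.04 in wild-type HFD livers, -0.09 ± 0.03 in Mlkl-/- ND livers and -0.10 ± 0.10 in wild-type ND livers (log2, SD, n = 3 each). The difference between wild-type HFD and wild-type ND in this balance, -0.13, compares with an SD of 0.10 within the wild-type ND group, where replicate 1 at -0.21 lay among the wild-type HFD values of -0.21, -0.20 and -0.28. With Psma8 left out of the core, a choice made after seeing the data, the difference was -0.19. Taking the median over members in place of the mean turned it to 0.10, so its sign depends on the summary used.

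**Figure D2:**
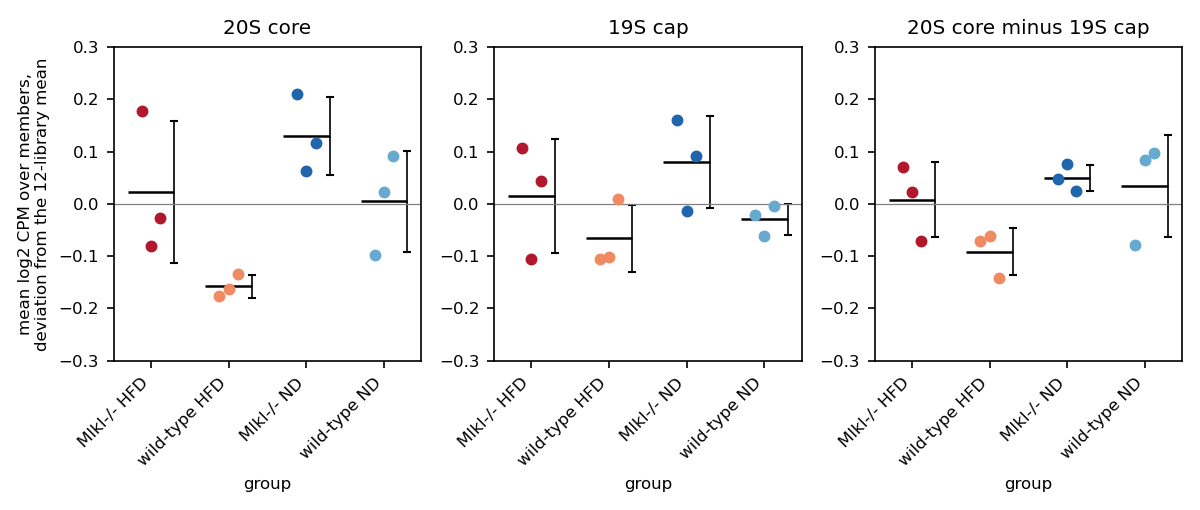
Mean log2 CPM over the 15 core members (left), the 20 cap members (middle) and their difference (right) in each library, as the deviation from the mean of the 12 libraries; points are libraries, lines group means and bars ± 1 SD (n = 3). The 3 wild-type HFD libraries are the lowest 3 for the core, and for the cap the groups overlap.

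The sample titles carry a code that the sources used here do not explain. It is 25 or 29 in HFD libraries and 23 or 27 in ND libraries, so the code itself cannot be told apart from diet, and it was used as the lower or higher of the 2 codes on each diet. At the lower level, the mean 20S deviation from the 12-library mean was 0.05 in 2 Mlkl-/- HFD libraries, -0.18 in 1 wild-type HFD library, 0.21 in 1 Mlkl-/- ND library and -0.04 in 2 wild-type ND libraries. At the higher level it was -0.03 in 1 Mlkl-/- HFD library, -0.15 in 2 wild-type HFD libraries, 0.09 in 2 Mlkl-/- ND libraries and 0.09 in 1 wild-type ND library. Wild-type HFD was the lowest of the 4 groups for the core at both levels. These are values of 1 or 2 libraries each.

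The first comparison asks what HFD did in wild-type livers. None of the 35 members was called at an adjusted p under 0.05 in wild-type HFD against wild-type ND livers (edgeR quasi-likelihood test, Benjamini-Hochberg adjustment over 18098 genes), where 4.23% of all genes were called. At an unadjusted p under 0.05, 1 member was higher and 6 were lower, which is 20% of 35 against 20.5% of all genes. DESeq2 called 1 member, Psma5 (adjusted p = 0.0231), limma-voom none, and the edgeR fit of the compared groups alone called Psmb6 (adjusted p = 0.0463). The core had a median log2 fold change of -0.21, with 13 of 15 members negative, while the cap had a median of -0.01 with 10 of 20 negative, beside a median of -0.01 over all genes. With library sizes left unscaled these medians were -0.02 for the core, 0.18 for the cap and 0.19 for all genes, so the core again lay below the middle of all genes and the cap on it. Adding the 8-locus level as a term gave -0.28 (14 of 15 negative) for the core and -0.095 (14 of 20 negative) for the cap. All genes had a median of -0.00010 in that fit, so there the cap too lay below the middle. The CPM values of the groups did not overlap for 8 core members, all lower in HFD, and for 5 cap members, 4 lower and 1 higher, where 29.1% of all genes had groups that did not overlap. Of the 10 hepatocyte markers, 9 had negative fold changes here (median -0.53) and 6 were lower at an unadjusted p under 0.05, with none called, and their part in the values of the core was not tested. In bulk tissue, fewer cells of a type and less RNA per cell cannot be told apart.

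By role, all 7 alpha-ring genes and all 4 non-catalytic beta genes had negative fold changes in wild-type livers, with medians of -0.24 and -0.23. The 6 ATPases had a median of -0.18 with 5 negative, and the 8 lid subunits, which include the deubiquitinase that strips ubiquitin chains, a median of 0.07 with 2 negative. The lowest core values were those of Psma5 (-0.42 ± 0.12, adjusted p = 0.0609) and of Psmb6 (-0.41 ± 0.15, adjusted p = 0.139), and the highest those of Psma8 (0.79 ± 0.54) and of Psmb5 (0.08 ± 0.15). In the cap, the lowest were Psmd6 (-0.28 ± 0.11) and the ATPase Psmc2 (-0.26 ± 0.13), and the highest the lid subunit Psmd8 (0.31 ± 0.14) and the deubiquitinase Psmd14 (0.20 ± 0.17), each with an edgeR adjusted p of at least 0.160. Over the cap, the 95% intervals of the fold changes lay between -0.62 and 0.61 on the log2 scale.

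Psma5 encodes an alpha-ring subunit (chr3:108256926-108279974, mm10), and Psmd6 a lid subunit (chr14:14112174-14120984). Psma5 had 40.7, 36.8 and 42.4 CPM in Mlkl-/- HFD livers and 36.3, 34.1 and 33.9 CPM in wild-type HFD livers, against 46.3, 47.1 and 48.3 CPM in Mlkl-/- ND livers and 43.0, 44.2 and 52.6 CPM in wild-type ND livers. All 6 HFD libraries lay below all 6 ND libraries, by a narrow gap between 42.4 and 43.0 CPM. Psmd6 had 64.7, 60.4 and 59.8 CPM in Mlkl-/- HFD livers and 60.5, 53.7 and 55.9 CPM in wild-type HFD livers, against 76.5, 74.5 and 78.7 CPM in Mlkl-/- ND livers and 68.7, 68.8 and 69.7 CPM in wild-type ND livers. Here too the 6 HFD libraries were all below the 6 ND libraries.

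With the diet effect averaged over the genotypes, these were the 2 members called, both lower on HFD, where 7.19% of all genes were called, 3.62% lower. At an unadjusted p under 0.05, 7 members were lower and none higher, or 20% against 22% of all genes. Psma5 differed by -0.33 ± 0.09 (adjusted p = 0.0315) and Psmd6 by -0.30 ± 0.08 (adjusted p = 0.0328) on the log2 scale in edgeR. A share of 2 in 35 is near that of all genes. They were also the only members without overlap between the 6 HFD and the 6 ND libraries, which held for 2.59% of all genes. Neither call held once the 8-locus level entered the model (edgeR adjusted p = 0.278 for Psma5 and 0.297 for Psmd6), with library size only (0.202 and 0.230) or with no filter beyond 1 count (0.0732 and 0.109). With 1 library left out at a time, Psma5 was called in 2 of 12 fits, those without Mlkl-/- ND replicate 1 or Mlkl-/- HFD replicate 3 (adjusted p over the 12 fits from 0.0295 to 0.0873). Psmd6 was called in 2 of 12, those without Mlkl-/- ND replicate 1 or wild-type HFD replicate 1 (from 0.0366 to 0.0940). The core median was -0.18 with 13 of 15 members negative, and the cap median -0.04 with 14 of 20 negative, beside -0.01 over all genes; without scaling they were -0.04, 0.10 and 0.13. Without Mlkl-/- ND replicate 1 the core median was -0.10 and the cap median 0.026. With the 8-locus level as a term they were -0.20 (14 of 15 negative) and -0.088 (18 of 20 negative), beside 0.0080 over all genes. Next to Psma5, Psmb3 was lowest in the core (-0.31 ± 0.11), and Psma8 (0.27 ± 0.38) and Psmb5 (0.05 ± 0.11) were highest. Next to Psmd6, the lid subunit Psmd12 was lowest in the cap (-0.22 ± 0.08), and Psmd8 (0.18 ± 0.10) and Psmd7 (0.09 ± 0.10) were highest.

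In Mlkl-/- livers, HFD against ND gave no called member, where 0.359% of all genes were called. At an unadjusted p under 0.05, 3 members were lower and none higher, or 8.57% against 13.6% of all genes, and neither DESeq2 nor limma-voom called a member in this comparison or in those of genotype. The core median was -0.15 with 11 of 15 negative and the cap median -0.06 with 13 of 20 negative. These medians rest on single libraries: they were 0.0056 and 0.016 without Mlkl-/- ND replicate 1, and -0.013 and 0.047 without Mlkl-/- HFD replicate 2. Without Mlkl-/- HFD replicate 3 the core median was -0.059, and without scaling the medians were -0.06 and 0.03 beside 0.07 over all genes. With the 8-locus level as a term they were -0.16 (15 of 15 negative) and -0.11 (17 of 20 negative), beside 0.012 over all genes. Groups did not overlap for 4 members, all lower on HFD (Psma3, Psma5, Psmd6 and Psmd12), where the share among all genes was 15.5%. The extremes of the core were Psma8 (-0.26 ± 0.54) and Psmb3 (-0.25 ± 0.15) at the low end and Psma6 (0.06 ± 0.12) and Psmb6 (0.03 ± 0.15) at the high end. In the cap the base scaffold Psmd1 (-0.31 ± 0.14) and Psmd6 (-0.31 ± 0.11) were lowest, and Psmd9, an assembly chaperone (0.24 ± 0.17), and the lid subunit Psmd7 (0.12 ± 0.14) highest.

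**Figure D3:**
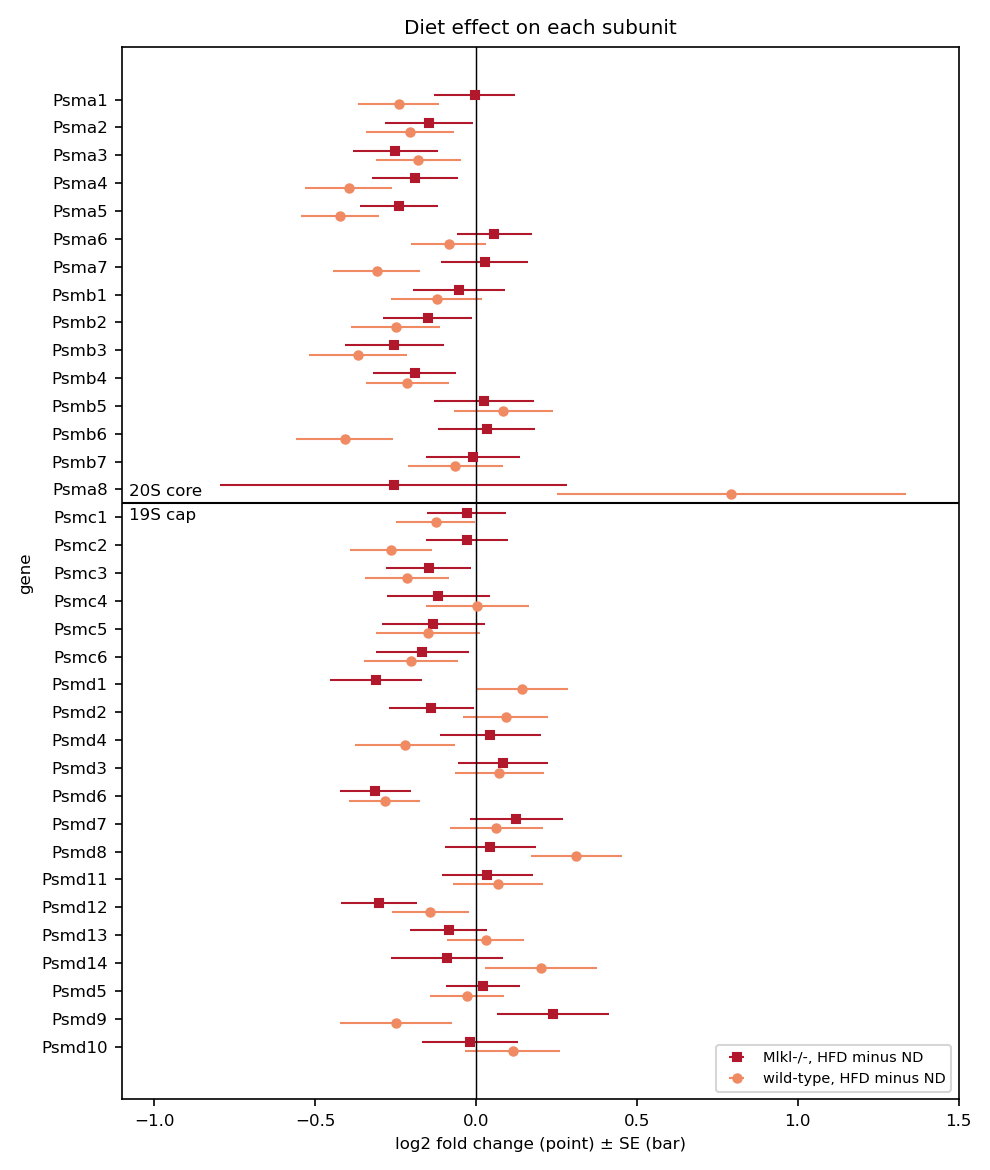
Log2 fold change of each member, HFD minus ND, in Mlkl-/- livers (squares) and in wild-type livers (circles), from the edgeR fit with bars of ± 1 SE; the line divides the 15 core members (above) from the 20 cap members (below). No member was called in either genotype, and wild-type values of the alpha ring and of the non-catalytic beta subunits all lie below 0.

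The diet effect in Mlkl-/- livers minus that in wild-type livers was called for no member and for 0% of all genes. At an unadjusted p under 0.05, 1 member and 10.4% of all genes passed. That member was Psmd1, at -0.45 ± 0.20 (adjusted p = 0.451, edgeR), with 101, 87.8 and 118 CPM in Mlkl-/- HFD livers, 111, 119 and 120 CPM in wild-type HFD livers, 112, 125 and 144 CPM in Mlkl-/- ND livers and 112, 96.4 and 109 CPM in wild-type ND livers. The other low value in the cap was Psmd14 (-0.29 ± 0.25), and the high ones were Psmd9 (0.49 ± 0.25) and Psmd4, the ubiquitin receptor (0.27 ± 0.22). In the core, the highest differences were Psmb6 (0.44 ± 0.21) and Psma7 (0.33 ± 0.19) and the lowest Psma8 (-1.05 ± 0.76) and Psma3 (-0.07 ± 0.19).

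The comparison of genotypes asks whether loss of Mlkl altered these transcripts. On HFD, no member was called between Mlkl-/- and wild-type livers, where 0.0276% of all genes were called, and 3 members (Psma1, Psma7 and Psmb6) were higher at an unadjusted p under 0.05, or 8.57% against 15.5% of all genes. The core median was 0.19, with 14 of 15 members positive, and the cap median 0.10 with 14 of 20 positive, beside 0.01 over all genes. Without Mlkl-/- HFD replicate 1 the core median was 0.084. Of the 10 hepatocyte markers, 9 were positive (median 0.40) and 3 higher at an unadjusted p under 0.05, with none called. Kupffer cell and macrophage markers were negative in 14 of 14 (median -1.09, none called). Those of sinusoidal endothelium were negative in 8 of 8 (median -1.03, 1 called), and those of stellate cells and fibroblasts in 7 of 9 (median -1.01, none called). The part of these cell types in the values of core and cap was not tested. Without scaling the medians of core, cap and all genes were 0.03, -0.06 and -0.16, so the sign of the cap's median depends on the scaling while core and cap both stay above the middle of all genes. Groups did not overlap for 9 members higher in Mlkl-/- (Psma1, Psma5, Psma6, Psma7, Psmb2, Psmb6, Psmc6, Psmd9 and Psmd13) and for 1 lower (Psmd5), where the share among all genes was 21.4%. Psma7 had the highest core value, 0.41 ± 0.14 (adjusted p = 0.201, edgeR), with 93.2, 81.2 and 68.1 CPM in Mlkl-/- HFD livers against 64.6, 60.3 and 58.1 CPM in wild-type HFD livers. Psmb6 followed at 0.39 ± 0.15, and Psma8 (-0.37 ± 0.53) and Psma3 (0.15 ± 0.13) were at the low end. In the cap, Psmd9 (0.36 ± 0.17) and Psmc2 (0.27 ± 0.13) were highest, and Psmd8 (-0.21 ± 0.14) and Psmd1 (-0.19 ± 0.14) lowest. The comparison on HFD and the wild-type diet comparison share the 3 wild-type HFD libraries.

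On ND, no member was called between Mlkl-/- and wild-type livers, where 0.00553% of all genes were called, and 2 members (Psmd13 and Psmd14) were higher at an unadjusted p under 0.05, or 5.71% against 5.51% of all genes. Mlkl itself, at -2.12 ± 0.37, was not called in this comparison either (adjusted p = 0.144, edgeR). Core and cap had medians of 0.10 and 0.11, with 14 of 15 and 14 of 20 members positive, and without scaling 0.04 and 0.05 beside -0.06 over all genes. Without Mlkl-/- ND replicate 1 they were 0.019 and 0.045, with 10 of 15 and 12 of 20 positive. Groups did not overlap for 7 members higher in Mlkl-/- and 1 lower, where the share among all genes was 10.5%. The highest value was that of Psmd14 (0.42 ± 0.17, adjusted p = 0.816, edgeR), with 57.5, 46.0 and 50.7 CPM in Mlkl-/- ND livers against 34.7, 31.2 and 48.9 CPM in wild-type ND livers, where replicate 3 of the wild-type group overlapped the Mlkl-/- values. Psmd1 (0.27 ± 0.14) was next in the cap, with Psmd5 (-0.14 ± 0.11) and Psmd9 (-0.13 ± 0.17) lowest. In the core, Psma8 (0.68 ± 0.55) and Psma3 (0.22 ± 0.13) were highest and Psmb6 (-0.05 ± 0.15) and Psma5 (0.02 ± 0.12) lowest. Averaged over diets, no member was called (0.0166% of all genes) and 3 were higher at an unadjusted p under 0.05, or 8.57% against 10.6% of all genes, with the core median at 0.17 and the cap median at 0.11, the cap's being 0.062 without Mlkl-/- ND replicate 1, 0.073 without Mlkl-/- HFD replicate 1 and -0.0014 without scaling. There the lowest core values were Psmb3 (0.10 ± 0.11) and Psma5 (0.11 ± 0.09) and the highest Psma7 (0.24 ± 0.10) and Psma2 (0.20 ± 0.10). In the cap the lowest were Psmd5 (-0.12 ± 0.08) and Psmd8 (-0.08 ± 0.10) and the highest Psmd14 (0.28 ± 0.12) and Psmc5 (0.24 ± 0.11).

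The 3 catalytic core subunits each carry 1 kind of active site. Psmb5 (chr14:54614119-54618022), which cuts after hydrophobic residues, had 97.7, 78.1 and 80.9 CPM in Mlkl-/- HFD livers, 74.5, 82.6 and 72.6 CPM in wild-type HFD livers, 105, 76.6 and 70.7 CPM in Mlkl-/- ND livers and 67.6, 75.7 and 73.3 CPM in wild-type ND livers. Diets overlapped within each genotype and genotypes on each diet, and replicate 1 was the highest of the 3 on both diets in Mlkl-/- livers. Psmb6 (chr11:70525367-70527858), which cuts after acidic residues, had 83.7, 69.0 and 61.9 CPM in Mlkl-/- HFD livers, 55.3, 52.8 and 55.5 CPM in wild-type HFD livers, 84.8, 65.9 and 59.0 CPM in Mlkl-/- ND livers and 75.0, 74.3 and 67.9 CPM in wild-type ND livers. All 3 wild-type HFD libraries were below the other 9. Psmb7 (chr2:38588036-38644087), which cuts after basic residues, had 120, 99.2 and 95.8 CPM in Mlkl-/- HFD livers, 82.2, 93.4 and 100 CPM in wild-type HFD livers, 113, 103 and 102 CPM in Mlkl-/- ND livers and 85.8, 87.2 and 115 CPM in wild-type ND livers, and here too diets overlapped within each genotype and genotypes on each diet. The last 500 bases of Psmb7 overlap exons of Nek6 on the other strand, and those of Psmc3 overlap Slc39a13, so without a stated strand setting reads of these pairs may be mixed. Pseudogene copies named after Psmb5, Psmb6 and Psmb7 held 2 to 425 counts in all libraries together, against 19017 to 28603 for the genes themselves.

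Set beside these constitutive subunits, 2 of their 3 inducible counterparts rose with diet averaged over genotypes, where 7.19% of all genes were called. Psmb9, which takes the place of Psmb6, had 20.1, 20.9 and 17.8 CPM in Mlkl-/- HFD livers and 17.02, 17.7 and 21.6 CPM in wild-type HFD livers, against 11.3, 8.68 and 7.82 CPM in Mlkl-/- ND livers and 11.2, 10.5 and 7.40 CPM in wild-type ND livers. Every HFD library was above every ND library, and Psmb9 rose by 1.08 ± 0.19 in Mlkl-/- livers (adjusted p = 0.0276) and by 0.95 ± 0.19 in wild-type livers (adjusted p = 0.0153) on the log2 scale in edgeR. The difference between the genotypes in this rise was 0.13 ± 0.26 (adjusted p = 0.893). In a model that included the 8-locus level the rise was 0.88 in Mlkl-/- livers (adjusted p = 0.161) and 0.73 in wild-type livers (adjusted p = 0.0804), and in a fit of the compared groups alone it was 1.09 in Mlkl-/- livers (adjusted p = 0.0930). The call was also lost in Mlkl-/- livers without Mlkl-/- ND replicate 2 or 3 or Mlkl-/- HFD replicate 1, and in wild-type livers without wild-type ND replicate 2 or 3 or wild-type HFD replicate 2 (highest adjusted p of 0.130 in Mlkl-/- and 0.0696 in wild-type livers). The rise averaged over genotypes, 1.02 ± 0.13 (adjusted p = 0.000896), kept its call in all 12 fits without 1 library and all 9 other alternatives.

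Psmb8, the counterpart of Psmb5, had 22.7, 26.4 and 22.3 CPM in Mlkl-/- HFD livers and 21.9, 21.1 and 22.9 CPM in wild-type HFD livers, against 20.9, 17.5 and 20.2 CPM in Mlkl-/- ND livers and 15.1, 18.7 and 15.6 CPM in wild-type ND livers. The lowest HFD library, at 21.1 CPM, lay just above the highest ND library, at 20.9 CPM. Psmb8 rose by 0.35 ± 0.10 averaged over genotypes (edgeR adjusted p = 0.0418), a call lost when the 8-locus level was modelled (adjusted p = 0.321) or with no filter beyond 1 count (0.0754). In wild-type livers alone Psmb8 was not called in the edgeR fit but was with library size only (adjusted p = 0.0192) and with DESeq2 (0.0496). The averaged call was kept without Mlkl-/- ND replicate 1 or wild-type ND replicate 2 and lost without each of the other 10 libraries. Psmb10, the counterpart of Psmb7, had 24.8, 25.0 and 19.5 CPM in Mlkl-/- HFD livers and 15.6, 18.9 and 20.9 CPM in wild-type HFD livers, against 24.7, 22.1 and 21.2 CPM in Mlkl-/- ND livers and 22.6, 21.95 and 20.1 CPM in wild-type ND livers, at -0.10 ± 0.11 averaged over genotypes (edgeR adjusted p = 0.647).

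The ratio of inducible to constitutive transcript was taken in each library. Psmb9 over Psmb6 was 0.240, 0.303 and 0.287 in Mlkl-/- HFD livers and 0.308, 0.336 and 0.389 in wild-type HFD livers, against 0.133, 0.132 and 0.132 in Mlkl-/- ND livers and 0.150, 0.141 and 0.109 in wild-type ND livers. The mean ratio on HFD was 2.09 times that on ND in Mlkl-/- livers and 2.58 times in wild-type livers, with no overlap between diets. Psmb8 over Psmb5 averaged 0.282 ± 0.053 in Mlkl-/- HFD, 0.288 ± 0.031 in wild-type HFD, 0.238 ± 0.044 in Mlkl-/- ND and 0.228 ± 0.018 in wild-type ND livers (SD, n = 3 each), with overlap in Mlkl-/- and none in wild-type livers. Psmb10 over Psmb7 averaged 0.220 ± 0.027 in Mlkl-/- HFD, 0.201 ± 0.010 in wild-type HFD, 0.214 ± 0.005 in Mlkl-/- ND and 0.230 ± 0.048 in wild-type ND livers, and the diets overlapped in both genotypes.

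**Figure D4:**
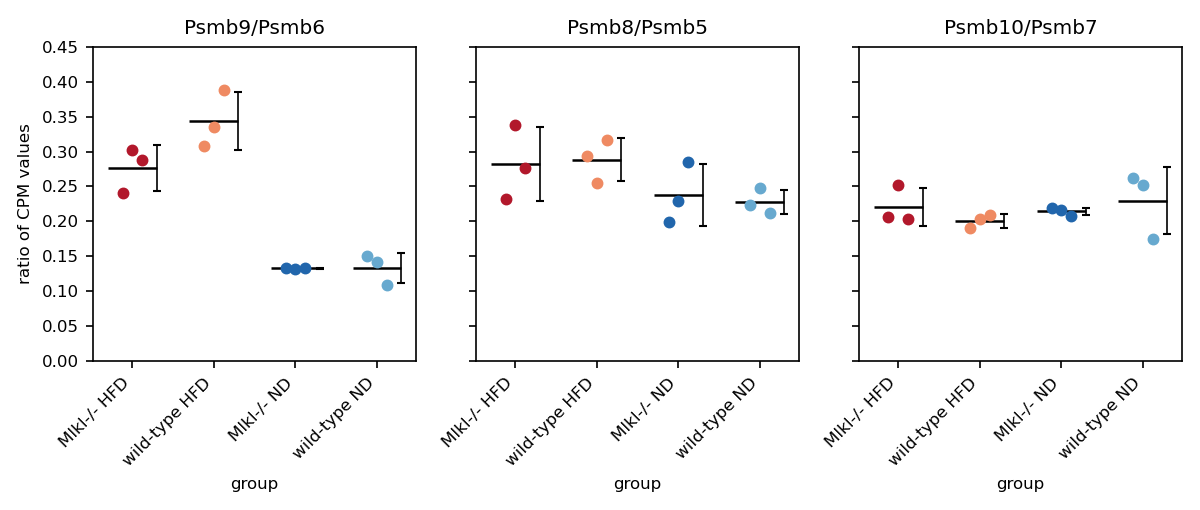
Ratio of CPM values of each inducible catalytic subunit to its constitutive counterpart in each library; points are libraries, lines group means and bars ± 1 SD (n = 3). Psmb9 over Psmb6 separates the 6 HFD libraries (0.240 and above) from the 6 ND libraries (0.150 and below), and in the other 2 ratios the 6 HFD and the 6 ND libraries overlap.

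Immune cells carry the inducible subunits, so the markers of other liver cell types are given beside Psmb9. The summed level of 14 Kupffer cell and macrophage markers was 131 to 277 raw CPM in Mlkl-/- HFD livers, 318 to 480 in wild-type HFD livers, 154 to 320 in Mlkl-/- ND livers and 186 to 266 in wild-type ND livers. It was higher on HFD in wild-type livers and overlapped between diets in Mlkl-/- livers. In wild-type livers 13 of these 14 markers were positive with diet (median 0.91, 3 called, where 4.23% of all genes were called). In Mlkl-/- livers 2 of 14 were positive (median -0.36, none called). Markers of sinusoidal endothelium summed to 104 to 144 raw CPM in Mlkl-/- HFD, 222 to 354 in wild-type HFD, 124 to 197 in Mlkl-/- ND and 144 to 230 in wild-type ND livers. Lymphocyte markers summed to 8.49 to 14.0 raw CPM in Mlkl-/- HFD, 11.3 to 26.6 in wild-type HFD, 8.01 to 14.96 in Mlkl-/- ND and 9.26 to 20.6 in wild-type ND livers. Adipocyte markers summed to 24.0 to 28.7 raw CPM in Mlkl-/- HFD, 21.0 to 53.6 in wild-type HFD, 7.05 to 11.6 in Mlkl-/- ND and 10.7 to 16.4 in wild-type ND livers, with every HFD library above every ND library, and 2 of the 6 were called higher on HFD averaged over genotypes in edgeR. In that average 7.19% of all genes were called. Stellate cell and fibroblast markers summed to 162 to 205 raw CPM in Mlkl-/- HFD, 211 to 456 in wild-type HFD, 187 to 220 in Mlkl-/- ND and 189 to 243 in wild-type ND livers. In wild-type livers 7 of these 9 markers were positive with diet (median 0.53, 1 called), and in Mlkl-/- livers 4 of 9 (median -0.28, none called). Cholangiocyte markers summed to 23.4 to 34.3 raw CPM in Mlkl-/- HFD, 26.9 to 145 in wild-type HFD, 38.1 to 95.8 in Mlkl-/- ND and 31.4 to 36.0 in wild-type ND livers. The sums of neutrophil, erythroid and pancreatic acinar markers overlapped between diets in both genotypes. None of the markers on these lists was at 0 in all libraries. The part of these cells in the values of the core, of Psmb9 and of the other genes that differed with diet was not tested.

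The other genes of the pathway were taken as lists. Beside their counts, 7.19% of all genes were called with diet averaged over genotypes, and 4.23% with diet in wild-type livers. Among the activators and the inhibitor of the core, 1 of 5 passed with diet averaged over genotypes: Psmf1, which encodes the inhibitor PI31, at 0.40 ± 0.09 (adjusted p = 0.0197), with 30.3, 27.7 and 30.7 CPM in Mlkl-/- HFD and 27.7, 25.7 and 27.1 CPM in wild-type HFD livers, against 23.1, 18.5 and 19.1 CPM in Mlkl-/- ND and 23.3, 23.8 and 20.3 CPM in wild-type ND livers. All HFD libraries were above all ND libraries, and the call was lost without Mlkl-/- ND replicate 2 or Mlkl-/- HFD replicate 1 (adjusted p up to 0.0575) and in the model that included the 8-locus level (0.229). None of the 6 genes listed for core assembly and related factors, the 8 partners of the cap or the 12 shuttle factors and p97 partners was called in any comparison. With diet averaged over genotypes, the most abundant of those 6 were at -0.10 ± 0.10 (Pomp, the maturation factor of the beta rings) and -0.06 ± 0.11 (Akirin2) on the log2 scale. The most abundant cap partners were at -0.07 ± 0.11 (Txnl1) and -0.16 ± 0.10 (Ecpas), and those of the shuttle list at -0.10 ± 0.13 (Sqstm1, the autophagy receptor p62) and -0.01 ± 0.10 (Vcp, the p97 unfoldase itself).

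Of the 5 genes for ubiquitin and its activating enzyme, Rps27a, which encodes ubiquitin fused to a ribosomal protein, fell. It had 102, 106 and 93.9 CPM in Mlkl-/- HFD livers and 75.0, 74.8 and 75.0 CPM in wild-type HFD livers, against 149, 129 and 118 CPM in Mlkl-/- ND livers and 105, 120 and 127 CPM in wild-type ND livers. All HFD libraries except Mlkl-/- HFD replicate 2, which exceeded wild-type ND replicate 1, were below all ND libraries. The fold change was -0.65 ± 0.13 in wild-type livers (adjusted p = 0.0155) and -0.52 ± 0.09 averaged over genotypes (adjusted p = 0.00443, edgeR), and the averaged call held in all 12 fits without 1 library and the 9 other alternatives. The wild-type call was lost without wild-type ND replicate 2 or 3 or wild-type HFD replicate 2 (adjusted p up to 0.0790). Ubb, which encodes ubiquitin as a chain of repeats, stood at -0.05 ± 0.09 in that average.

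Of 9 genes in the list of NRF1 and its partners, which regulate proteasome genes, 3 were called higher with diet averaged over genotypes. In that average 7.19% of all genes were called. Nfe2l1 had 134, 104 and 136 CPM in Mlkl-/- HFD livers and 131, 161 and 147 CPM in wild-type HFD livers, against 102, 107 and 103 CPM in Mlkl-/- ND livers and 110, 98.9 and 113 CPM in wild-type ND livers, a rise of 0.35 ± 0.10 (adjusted p = 0.0401, edgeR). Nfe2l2, which encodes the related factor NRF2, had 55.9, 41.6 and 51.4 CPM in Mlkl-/- HFD livers and 70.9, 70.7 and 66.3 CPM in wild-type HFD livers, against 35.3, 46.9 and 29.5 CPM in Mlkl-/- ND livers and 38.5, 46.9 and 49.7 CPM in wild-type ND livers, a rise of 0.52 ± 0.12 (adjusted p = 0.0195). Their small Maf partner Mafk had 22.6, 14.1 and 18.9 CPM in Mlkl-/- HFD livers and 21.2, 27.6 and 18.1 CPM in wild-type HFD livers, against 13.9, 12.3 and 9.56 CPM in Mlkl-/- ND livers and 11.5, 13.7 and 12.1 CPM in wild-type ND livers, a rise of 0.74 ± 0.14 (adjusted p = 0.00813). Mafk was also called in wild-type livers alone, at 0.84 ± 0.20 (adjusted p = 0.0317). The Nfe2l1 call was lost without each library except replicate 2 of Mlkl-/- HFD, replicate 1 of wild-type HFD and replicate 1 of Mlkl-/- ND, and the Nfe2l2 call without wild-type HFD replicate 2 or Mlkl-/- HFD replicate 1. The wild-type call of Mafk was lost without any 1 library of that comparison but wild-type HFD replicate 3, and its averaged call held without each. In the model that included the 8-locus level the averaged calls were lost, at adjusted p of 0.368, 0.120 and 0.153 for Nfe2l1, Nfe2l2 and Mafk, as was the wild-type call of Mafk (0.142). The Nfe2l1 call was also lost with no filter beyond 1 count (0.0593).

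**Figure D5:**
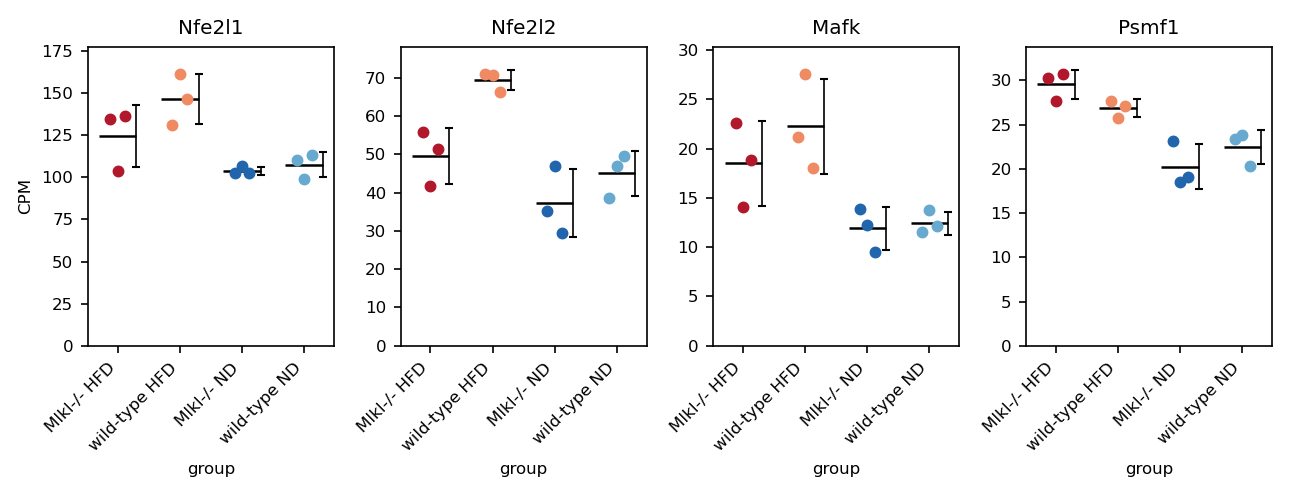
CPM of Nfe2l1, Nfe2l2, Mafk and Psmf1 in each library; points are libraries, lines group means and bars ± 1 SD (n = 3), and each panel has its own axis from 0. Mafk and Psmf1 are higher in all 6 HFD libraries than in all 6 ND libraries, and Nfe2l1 and Nfe2l2 overlap between diets in Mlkl-/- livers.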

How the data were processed

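From each of 12 livers, 100 ng of RNA went into a QuantSeq 3' library (Lexogen), which was sequenced on a NextSeq 500, per the labels' protocols. The build mm10 and the tools cutadapt 1.9, HISAT2, featureCounts and limma are listed in the submitters' processing notes. The annotation, the strand setting and the handling of multimapping reads are not named there. The authors deposited unnormalized counts in whole numbers, with library totals of 19435391 to 32120426. Psma8 had 11 to 58 counts per library, and the other 34 members between 160 (Psmd10) and 4262 (Psmd2).

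Groups came from the genotype and diet labels, and each library was treated as 1 animal because each title carries a number of its own. The labels do not say whether animals shared litters or cages. Members, gene lists and tests were chosen with earlier results of these data known. edgeR 4.0.16 in R 4.3.3 removed genes with filterByExpr (defaults of 10 counts and 15 in total), which left 18098 genes, scaled libraries by TMM (factors 0.922 to 1.16), fitted 1 mean per group with robust quasi-likelihood dispersions (8 residual degrees of freedom) and tested 7 contrasts, with Benjamini-Hochberg adjustment across all 18098 genes and calls at 0.05. Fold changes are log2 with their SE, CPM is TMM-scaled except where called raw CPM, log2 CPM uses a prior count of 2, and intervals are at 95%.

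The text names every called member, the catalytic subunits and their counterparts, the 2 highest and 2 lowest fold changes per comparison in core and cap, the most and least abundant members, called genes of the pathway lists or else their most abundant, and Mlkl. Psmd1, Psma7 and Psmd14 are given per library after their values were seen. Alternatives were RLE size factors, library size only, 2 other filters (1 count in total, or 5 CPM in 3 libraries), DESeq2 1.42.0, limma-voom (limma 3.58.1), non-robust dispersions, fits restricted to the groups in a comparison, the title code and the 8-locus level as terms, and each library left out. Promoters were matched by symbol to RefSeq sequences for 28 of the 35 members.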

Additional observations from a re-analysis of the deposited data

How the results depend on the processing

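The number of members called in wild-type livers between diets, 0, became 1 lower with DESeq2 and with the title code as a term (Psma5 in both) and with the compared groups only (Psmb6). With 1 library left out it was 0 to 1, the 1 (Psma5) being called without Mlkl-/- ND replicate 1. Averaged over genotypes the 2 called members became 0 with library size only, with no filter beyond 1 count or when the 8-locus level joined the model, 3 with DESeq2, with the filter of 5 CPM in 3 libraries and with the title code as a term (where the third was Psmb3, adjusted p = 0.0427, edgeR), and 0 to 2 with 1 library left out. In the other 5 comparisons the count stayed 0 under every alternative run. Library size only moved the median of all genes by diet to 0.19 in wild-type and to 0.07 in Mlkl-/- livers. With it, the mean 20S level stood at 0.031 for diet in wild-type livers and 0.013 for genotype on HFD, and the mean 19S level at 0.16 for diet in wild-type livers, 0.018 for diet in Mlkl-/- livers and -0.087 for genotype on HFD, on the log2 scale. With the median over members in place of the mean, which rests on 1 or 2 genes in the middle of the order, the 20S diet difference was 0.10 in Mlkl-/- livers, that of 19S -0.18 in wild-type livers, and that of core minus cap 0.10 in wild-type and 0.23 in Mlkl-/- livers. Leaving out 1 library moved the 19S diet difference in Mlkl-/- livers between -0.11 and 0.016. The causes were not tested.

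Of the fold changes of named genes, those that turned sign were at most 0.16 in size in the main fit or belonged to Psma8. Psma8 aside, the largest were Psmb5 (0.16) and Psma3 (0.15) for genotype on HFD, where the core median was 0.19. For diet in wild-type livers those that turned sign were Psmb5 (-0.10 with the 8-locus term) and Psmb7 (0.13 with library size only, -0.13 to 0.098 without 1 library). For diet in Mlkl-/- livers they were Psma6 (-0.020 with the 8-locus term, -0.0055 to 0.12 without 1 library), Psmb5 (-0.013 with the title code, -0.15 with the 8-locus term, -0.082 to 0.24 without 1 library), Psmb6 (-0.038, -0.093 and -0.095 to 0.22 under the same 3), Psmb10 (-0.0060, -0.15 and -0.030 to 0.14), Psmb7 (0.076 with library size only, 0.0038 with the compared groups only, 0.017 with the title code, -0.12 to 0.064 without 1 library) and Psma8 (-0.93 to 0.52 without 1 library). For genotype on HFD they were Psma3 (-0.017), Psmb8 (-0.056), Psmb5 (-0.0081) and Psmb9 (-0.11) with library size only, Psmb9 also with the title code (-0.034), the 8-locus term (-0.044) and without 1 library (-0.0035 to 0.17). For genotype on ND they were Psmb6 (0.014 with the title code, -0.23 to 0.059 without 1 library), Psma5 (-0.036 with library size only, -0.0080 with the title code, -0.034 to 0.0998 without 1 library), Psma8 (-0.077 to 0.94) and Psmd9 (-0.28 to 0.0065) without 1 library. In the averages they were Psmb5 (-0.13) and Psmd7 (-0.014) for diet with the 8-locus term, Psma8 for diet without 1 library (-0.069 to 0.67), and Psmb3 (-0.012) and Psma5 (-0.00015) for genotype with library size only. Over all alternatives, 51 values of named genes turned sign, 74 lost a call, 7 gained one and 1569 kept direction and call.

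No paired analysis was possible because each title carries its own number and no number is shared between groups. With 3 animals a group, the SE of a member was about 0.14 on the log2 scale and that of Psma8, with 11 to 58 counts, 0.54, and differences as large as -0.42 (Psma5, diet in wild-type livers) were not called with this number of animals. Leaving Psma8 out of the 20S mean, chosen after seeing the data, moved no 20S difference by more than the spread between libraries. For diet in wild-type livers it moved the 20S difference from -0.163 to -0.225 and that of core minus cap from -0.125 to -0.188.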
